A study of Mus musculus with 4 samples.

Results

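Peaks of N6-methyladenosine (m6A) whose summit lay at the stop codon of an mRNA were examined in mouse c-Kit+ foetal liver (FL) cells, the cells of the foetal blood-forming organ that carry the stem and progenitor cell receptor KIT. The peak list of each m6A immunoprecipitation (IP) replicate was handled separately. A summit was kept when a single protein-coding gene had it on its chosen transcript, no other gene had an exon there, and it was no more than 200 nt of spliced transcript away from the stop codon. The chosen transcript was the one with the longest coding sequence in the GENCODE M21 basic set. This gave 3330 stop codon summits in 3320 genes in replicate 1, out of 10829 summits that could be placed on a chosen transcript and 15635 peaks in all. In replicate 2 there were 3123 stop codon summits in 3121 genes, out of 10464 placed summits and 14872 peaks. The peak lists carry no strand, and 78.9% and 79.3% of the stop codon summits lay in genes whose basic coding transcripts all end at 1 stop codon.

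The series holds 2 IP samples and 2 input samples of MACS-enriched Kit+ foetal liver cells from C57BL/6 mice, and the labels name total RNA for the IPs and polyA RNA for the inputs. Per the study's methods the cells were Ythdf2 CTL, that is, Ythdf2 fl/fl without Vav-iCre. Both Ythdf2 alleles therefore carried loxP sites around exon 2 and GFP behind the start codon, so that the cells made YTHDF2 as a fusion with GFP. The age of the embryos is not given in the sources used here, and the series compares no genotypes or treatments. Peak lists hold no expression levels, so the labelled cell type could not be checked against its markers, and Kit itself had no placed summit in either list. Input libraries were not analysed here.

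m6A is written on mRNA by a complex built around METTL3 and METTL14, mostly in the sequence context DRACH (with D for any base but C, R for A or G and H for any base but G), of which GGAC is the best known core. ALKBH5 and FTO can remove it, and reader proteins bind it, among them YTHDF2, which brings methylated mRNAs to deadenylation and decay. The mark is known for its concentration around stop codons and in long exons, and proteins deposited at splice junctions are known to limit it close to them. In meRIP-seq the mRNA is fragmented, methylated fragments are pulled down with an antibody, and a peak is a stretch where the IP signal exceeds a local background. The fold enrichment of a peak is the ratio of these at its summit.

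The strongest stop codon peaks differed in where their motif lay. They were the 10 genes with the highest fold enrichment among genes with 1 overlapping stop codon peak per replicate and a background of at least 5 control reads in both. In 7 of the 10 genes a GGAC lay within 50 nt of both summits. Over all stop codon summits, counted singly, the share with a GGAC within 50 nt was 59.3% in replicate 1 and 59.9% in replicate 2. For a DRACH of any kind it was 96.5% and 96.6%, so most summits without a GGAC had another DRACH within 50 nt. The GGAC nearest to a summit is shown in capitals, 5′ to 3′ on the strand of the gene (GENCODE M21 transcripts, GRCm38). Arhgef3 has a second line, because its summits had different nearest sites, and in Mex3a the site shown and another one upstream, not shown, were both 17 nt from the replicate 2 summit:
C2cd4a (chr9:67830717-67830746, − strand, 3′ UTR): tccctggagccctGGACacctaaggtcgct
Mex3a (chr3:88537006-88537035, + strand, coding): ccggcagcgggcgGGACtgcatggtgtgct
Pde4b (chr4:102605186-102605215, + strand, coding): agaggattctgagGGACcggaaaaggaggg
Adra2b (chr2:127364955-127364984, + strand, 3′ UTR): agggttagtgccaGGACcacccggtggtag
Fhdc1 (chr3:84444533-84444562, − strand, coding): ctgaagggcagagGGACgacggaaagatcc
Arhgef3, replicate 2 (chr14:27401781-27401810, + strand, coding): gcttgactctgagGGACtggtccagggtcc
Arhgef3, replicate 1 (chr14:27401846-27401875, + strand, coding): aacttgagcagatGGACcaatcggacagcg
Pheta1 (chr5:121853357-121853386, + strand, end of the coding sequence): ccaggctcccaggGGACataggacatatga

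For the other 3 genes no GGAC lay within 50 nt of either summit, and the capitals mark the stop codon in its surroundings. A GGAC can be read in lower case at the start of the P2ry2 line, more than 50 nt from its summits at −153 and −133.
St8sia4 (chr1:95591668-95591697, − strand): gtgcatgaagcaaTAAggcacactttggag
Gpr160 (chr3:30896776-30896805, + strand): catagtcatctgtTAGcatgctgctgtgct
P2ry2 (chr7:100997961-100997990, − strand): ggacattcggctaTAGcacctcagtcaggt

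A motif next to the stop codon itself was found in part of the genes. Of the 2614 genes with a stop codon summit in both replicates, 746 (28.5%) had a GGAC within 20 nt of the stop codon, against 17.9% of genes that had a placed summit elsewhere only and 19.3% of all protein-coding genes. In 253 genes such a GGAC also lay within 50 nt of both summits. The 5 of them with the highest mean log2 fold enrichment are shown with both the GGAC and the stop codon in capitals, because there the motif stands next to the end of the reading frame. Their summits lay between 47 nt before and 27 nt after the stop codon, some of them outside the 30 nt shown. Another GGAC was nearer to both Pard6b summits, at 6 and 1 nt. In Atp8b2 one not shown was nearer to the replicate 2 summit, at 4 nt:
Eva1b (chr4:126149639-126149668, + strand): gctgGGACgaatgcactattacTGAcaccc
Pard6b (chr2:168099186-168099215, + strand): agatgGGACaatcataacattgTGAaccac
Mfsd4b4 (chr10:39891715-39891744, − strand): atcatcaGGACaaaagggatTAAcacgaat
Sik1 (chr17:31846279-31846308, − strand): gggGGACattcgtcctggtacagTGAgggt
Atp8b2 (chr3:89941131-89941160, − strand): agggcTGAagacctgggctgGGACcccctg

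Summits were spread over the whole window and were densest just past the stop codon. Distances are given in nt along the spliced transcript, negative on the coding side and positive in the 3′ UTR, and 0 for a summit inside the stop codon. The median distance was +3 in replicate 1 (quartiles −75.75 and 79.75) and +4 in replicate 2 (quartiles −77 and 83). Within 50 nt lay 33.0% and 32.3% of the summits, and within 100 nt 61.5% and 60.7%. Density, in summits per Mb of transcript, rose from 743 in replicate 1 and 727 in replicate 2 at −200 to −151 to 1336 and 1221 at −50 to −1. It was highest at 1 to 50, with 1511 and 1392, and fell to 865 and 810 at 151 to 200.

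The density did not fall to the same level on both sides of the window. At −400 to −201 it was 427 and 417 summits per Mb, close to the 383 and 365 at −1000 to −801. At 201 to 400 it was 536 and 525, and from there it fell to 145 and 137 at 801 to 1000. The window of 200 nt thus holds the top of a wider hump.

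**Figure D1:**
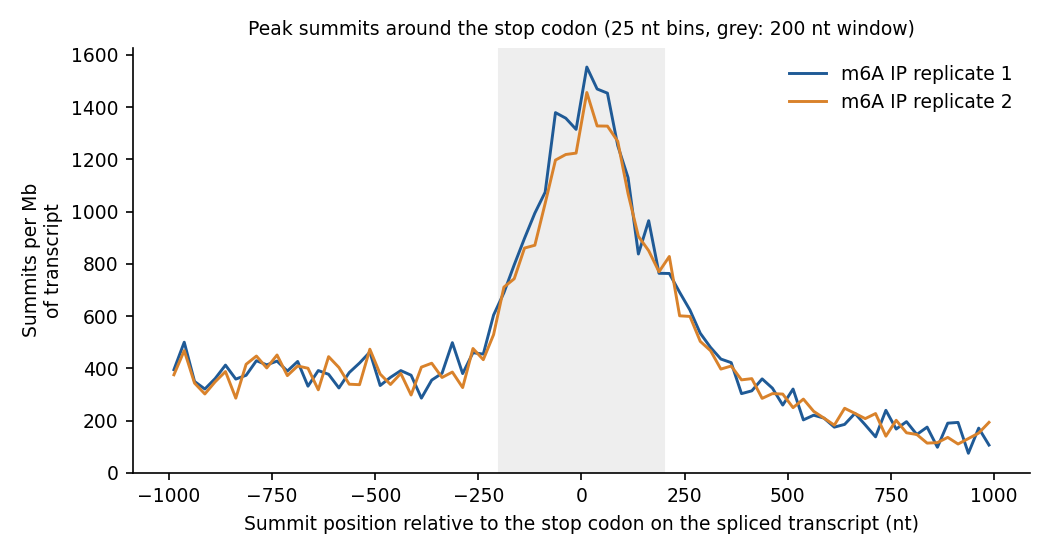
Summits per Mb of transcript (vertical axis) against position relative to the stop codon in nt (horizontal axis), in bins of 25 nt, with 1 line per IP replicate and the 200 nt window in grey. Both replicates peak in the bins next to the stop codon, and the coding side levels off near 400 summits per Mb while the 3′ UTR side falls further.

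Both sides of the stop codon carried nearly equal numbers of summits. On the 3′ UTR side lay 51.3% ± 0.532 (SD, n = 2) of them, that is 1697 of 3330 in replicate 1 (51.0%, exact 95% interval 49.2 to 52.7) and 1615 of 3123 in replicate 2 (51.7%, 49.9 to 53.5). The coding side held 1591 (47.8%) and 1470 (47.1%), and 42 and 38 summits were inside the codon. Some transcripts end before the window does, so the 3′ UTR side has fewer bases, and per Mb it held 1184 and 1127 summits against 1063 and 982 on the coding side. Intervals of shares cover counting error only.

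Peaks of both sides had similar properties. Median fold enrichment was 3.56 and 3.81 on the coding side and 3.42 and 3.52 on the 3′ UTR side. GGAC lay within 50 nt of 59.3% and 59.1% of coding-side summits and of 59.4% and 60.6% of those in the 3′ UTR. The peak overlapped one of the other replicate in 86.5% and 91.9% of cases on the coding side, and in 87.9% and 92.8% on the 3′ UTR side. The peaks were wide relative to these distances, with a median of 434 and 453 bp, and 86.9% and 88.1% of them covered the stop codon itself.

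The last exon held nearly all of these summits. In replicate 1, 98.9% lay in the last exon of the transcript, and in replicate 2 it was 99.2%. The summits of genes with several exons lay a median of 213 and 224 nt past the last exon junction (quartiles 140 and 339.75, 145 and 359). Of them, 409 (12.8%) and 364 (12.1%) were less than 100 nt past it. Over the last exons of genes with several exons, the stop codon in the last one and a placed summit anywhere, placed summits were sparse in the first 50 nt, with 538 and 498 per Mb. The density was 871 and 776 at 50 to 99 nt, reached 1897 and 1689 at 150 to 199 nt, and was 760 and 757 at 400 to 449 nt.

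The number of coding bases in the last exon, which is the distance from the last junction to the stop codon, went with the side on which the summit lay. The groups of this number were chosen after the values were seen, over 6990 genes with a placed summit. In the 523 genes with under 50 coding bases in the last exon, 88.8% and 86.0% of stop codon summits were on the 3′ UTR side, at a median of +105 and +96. With 100 to 149 coding bases (1282 genes) the share was 68.8% and 71.4% and the median +32 and +44. With 200 to 299 (944 genes) it was 38.7% and 43.1%, at −27.5 and −17, and with 300 to under 500 (650 genes) 26.3% and 27.4%, at −71.5 and −65. The nearly equal split over all genes is therefore a sum of groups that lean to opposite sides.

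Measured from the last junction, the same summits moved less in the groups under 300 coding bases, though in replicate 2 only slightly less. The median distance past the junction was 140 and 121 nt for under 50 coding bases, 163 and 166.5 nt for 100 to 149, and 211.5 and 224 nt for 200 to 299. It rose to 313.5 and 326 nt for 300 to under 500, and to 1322 and 1315 nt for at least 1000. From the stop codon these last groups had medians of −71.5 and −65, and −69 and −78. The 50-nt bin of highest density was counted over all placed summits of these last exons. From the stop codon it went from 151 to 200 (under 50 coding bases) over 1 to 50 (100 to 149) and −100 to −51 (200 to 299) to −150 to −101 (300 to under 500), in each replicate. From the junction it stayed between 100 and 349 nt in every group and replicate. Genes with at least 1000 coding bases had 2 such places. One was 250 to 299 nt past the junction, with 1320 and 1371 summits per Mb, and the other −200 to −151 from the stop codon, with 1242 and 1371. Further into the coding sequence, density was 1035 and 906 at −300 to −251 and 802 and 621 at −350 to −301. At −400 to −351 it was 569 in replicate 1 but 1009 in replicate 2, so replicate 2 showed no steady fall. The window bounds what a stop codon summit can be, and these bins were not tested against each other.

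**Figure D2:**
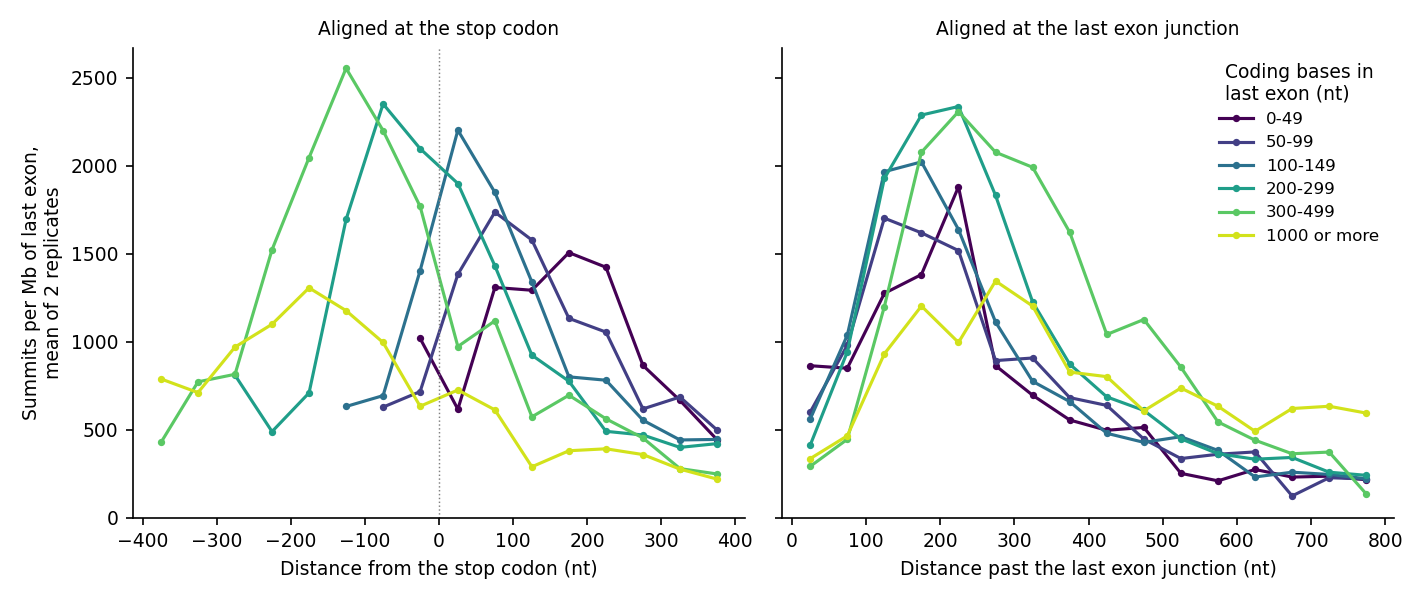
Placed summits per Mb of last exon (vertical axes, mean of both replicates, bins of 50 nt) for genes grouped by the coding bases in their last exon, aligned at the stop codon (left, nt) and at the last exon junction (right, nt). The maxima run from the 3′ UTR side to the coding side in the left panel as the coding part grows, and lie between 100 and 349 nt past the junction in the right panel.

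How many genes had a stop codon summit also varied with this length. Among genes with a placed summit, 27.2% and 24.7% had one with under 50 coding bases in the last exon, 45.2% and 40.3% with 100 to 149, and 60.8% and 58.1% with 200 to 299. With 300 to under 500 coding bases it was 60.8% and 58.3%, and with at least 1000 it was 31.0% and 30.4%. Median fold enrichment was lowest with 50 to 99 coding bases, at 2.78 and 2.93, and highest with at least 1000, at 5.35 and 5.44.

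The exon structure of the gene set further groups apart. In 261 genes with a placed summit the stop codon is not in the last exon. A stop codon summit was found in 25.7% (exact interval 20.5 to 31.4) and 23.4% (18.4 to 29.0) of them. Of their 71 and 62 stop codon summits, 42 and 41 nevertheless lay in the last exon. Genes with the stop codon in the last of several exons had one in 45.2% (44.0 to 46.4) and 42.4% (41.2 to 43.5). In 235 single-exon genes, which have no junction, the share was 40.4% (34.1 to 47.0) and 41.7% (35.3 to 48.3), with median fold enrichment of 5.52 and 5.66.

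Genes with a short last exon or a short 3′ UTR had a stop codon summit in both replicates less often than longer ones, and above these lengths the share varied little. Of genes with a placed summit in either replicate, 34.9% had a stop codon summit in both. With a last exon under 400 nt it was 110 of 641 genes (17.2%, exact 95% interval 14.3 to 20.3). From 400 to under 800 nt it was 39.6% (36.9 to 42.4), from 800 to under 1600 nt 34.4% (32.3 to 36.5), from 1600 to under 3200 nt 36.0% (34.0 to 38.0) and from 3200 nt 38.0% (35.5 to 40.6). With a 3′ UTR under 200 nt it was 124 of 672 genes (18.5%, 15.6 to 21.6), against 38.0% (35.2 to 40.9) at 200 to under 500 nt and 39.2% (37.2 to 41.3) at 2000 nt or more. A 3′ UTR under 200 nt also leaves fewer bases in which a summit can be placed, and 9.33% and 8.02% of the stop codon summits of these genes were on the 3′ UTR side.

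**Figure D3:**
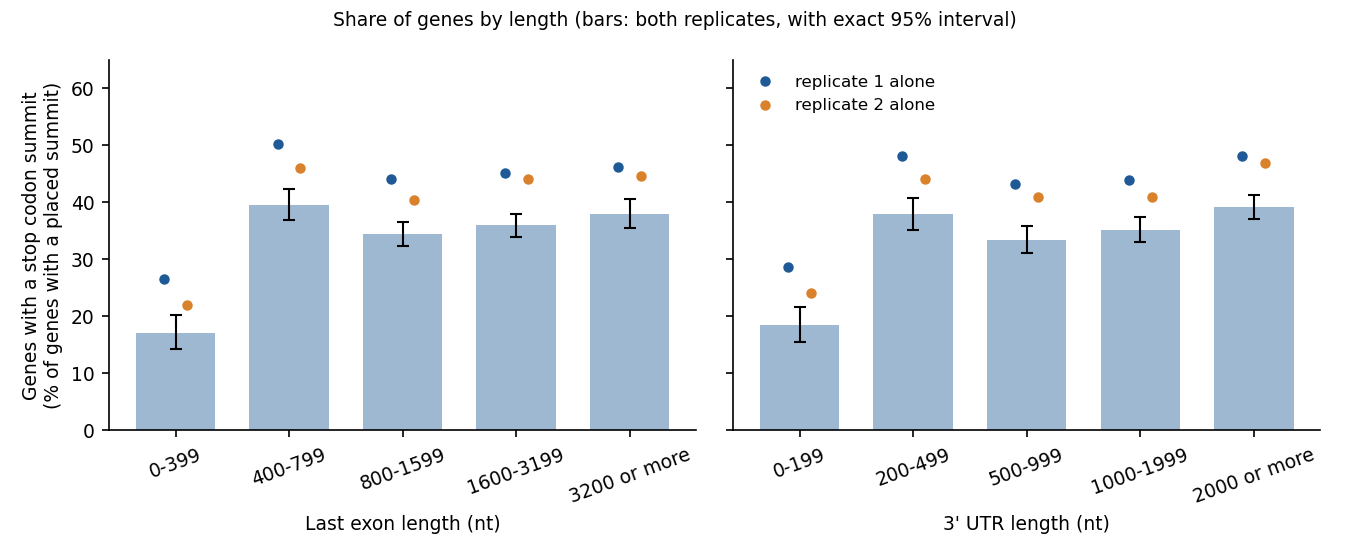
Share of genes with a placed summit that had a stop codon summit (vertical axis, percent) by length of the last exon (left, nt) and of the 3′ UTR (right, nt). Bars give genes with one in both replicates, with exact 95% intervals, and points give each replicate alone. The shortest group stands at 17.2% and 18.5%, and the other groups lie between 33.4% and 39.6%.

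Longer last exons went with higher fold enrichment and lower background. Median fold enrichment rose step by step from 2.51 and 2.67 with a last exon under 400 nt to 4.22 and 4.56 from 3200 nt. The median background fell over the same groups from 42 and 29 control reads to 20 and 14.9. The share on the 3′ UTR side did not follow the length in 1 direction. It was 38.0% and 39.7% under 400 nt, 61.3% and 59.9% at 400 to under 800 nt, and 43.2% and 46.6% from 3200 nt. The part of the background in these differences was not tested.

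Stop codon peaks were set against 3 other classes of placed summit, namely the 3′ UTR beyond the window, the coding part of last exons outside it, and coding summits in internal exons of at least 400 nt. For each of 4 features, shares were compared within each replicate (Fisher's exact test, two-sided, p-values adjusted over all 24 tests by Benjamini-Hochberg). Peaks of 1 library are not replicates, and these tests describe each library. Stop codon peaks had a lower fold enrichment than each of these classes. Their median was 3.48 and 3.63, against 3.90 and 4.03 in the distal 3′ UTR, 4.90 and 5.08 in coding sequence of last exons and 3.90 and 4.02 in long internal exons. A fold enrichment at or above the median of the placed summits was found for 39.1% and 39.4% of stop codon peaks. The share was lower than in the distal 3′ UTR (45.8% and 45.0%, adjusted p = 1.15e-05 and 0.000229, Fisher's exact test), the coding last exon (64.8% and 63.3%, adjusted p = 7.7e-56 and 7.74e-47) and long internal exons (45.4% and 44.5%, adjusted p = 2.53e-05 and 0.000683).

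This difference went with the background. Stop codon summits had the most reads on both sides of the ratio, with medians of 91 and 88 IP reads over 28 and 21 control reads. Coding summits of last exons had 62 and 61 IP reads over 13 and 10. The classes were therefore also compared at like background, in bands of control reads chosen after the values were seen. With 5 to under 20 control reads, the median fold enrichment of stop codon peaks was 5.19 and 4.90, above the 4.72 and 4.64 of the distal 3′ UTR and the 4.73 and 4.81 of long internal exons. The share at or above the median of the band was then 7.28 points higher than in the distal 3′ UTR on average over the replicates (larger adjusted p = 0.0635, Fisher's exact test) and 5.96 points higher than in long internal exons (larger adjusted p = 0.338). With 50 or more control reads the median of stop codon peaks was 2.16 and 1.95, below the 2.33 and 2.20 of the distal 3′ UTR. Against coding last exons the band of 5 to under 20 gave 5.48 and 5.44, and a difference in share of −7.48 points (larger adjusted p = 0.274, Fisher's exact test). With 20 to under 50 control reads, the band that held most stop codon peaks (37.7% and 37.8%), the share was lower than in coding last exons by a difference of −21.2 points (larger adjusted p = 1.05e-09, Fisher's exact test). In that band the difference was −6.63 points from long internal exons (larger adjusted p = 0.0245, Fisher's exact test) and −2.15 from the distal 3′ UTR (larger adjusted p = 0.481). Under 5 control reads the median of stop codon peaks was 6.90 and 7.95, above the 6.55 and 7.23 of coding last exons. In each band from 5 control reads upward it was below that of coding last exons in both replicates. Against the distal 3′ UTR and long internal exons, it was higher in the bands under 20 control reads and lower in those from 20 upward. How much of each difference is due to the background was not tested.

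Stop codon peaks carried GGAC slightly more often than the other classes and were narrower than coding peaks. GGAC lay within 50 nt of the summit in 59.6% ± 0.381 (SD, n = 2). This was 6.40 and 7.14 points more than in the coding part of last exons (adjusted p = 0.000145 and 3.27e-05, Fisher's exact test). Against the distal 3′ UTR the difference was 2.84 points in replicate 1 (adjusted p = 0.0652, Fisher's exact test) and 4.51 in replicate 2 (adjusted p = 0.00314). Against long internal exons it was 2.42 (adjusted p = 0.111, Fisher's exact test) and 3.88 points (adjusted p = 0.0108). Both of these passed the test in replicate 2 only, and with a window of 400 nt the averages were 0.125 points against the distal 3′ UTR and 1.30 against long internal exons. The share of peaks with a width at or above the median of placed summits differed by −14.8 and −15.5 points from that in the coding part of last exons (adjusted p = 4.94e-20 and 6.42e-21, Fisher's exact test). It differed by −8.35 and −7.41 points from long internal exons (adjusted p = 1.69e-08 and 1.29e-06, Fisher's exact test) and by −1.85 and −1.35 points from the distal 3′ UTR (adjusted p = 0.229 and 0.392).

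Recovery in the other replicate did not rank the classes the same way in both replicates. Stop codon peaks overlapped a peak of the other list in 87.1% of cases in replicate 1 and 92.3% in replicate 2. In replicate 1 this was less than in the coding part of last exons (90.6%, adjusted p = 0.00167, Fisher's exact test) and in long internal exons (90.0%, adjusted p = 0.00272), with 87.2% in the distal 3′ UTR (adjusted p = 1). In replicate 2 it was more than in the distal 3′ UTR (88.1%, adjusted p = 4.1e-06, Fisher's exact test), with 90.8% (adjusted p = 0.122) and 92.6% (adjusted p = 0.772) in the other classes. When a summit of the other list had to lie within 100 nt, stop codon peaks were recovered 9.81 points more often than coding last-exon peaks, averaged over the replicates (larger adjusted p = 4.28e-09, Fisher's exact test). Their width is smaller, as given above, and whether width decides this was not tested.

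The limit of 200 nt cut through a continuous range. Just inside it, at 181 to 200 nt on either side, were 202 and 210 summits with median fold enrichment of 4.04 and 4.31. Just outside, at 201 to 220 nt, were 197 and 195 with 3.96 and 4.28.

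The sequence around the stop codon was described for the genes themselves, without the summit position. GGAC occurred within 50 nt of the stop codon in 51.9% of the genes with a stop codon summit in both replicates, in 34.2% of genes with a placed summit elsewhere only and in 36.7% of all genes. Within 200 nt the shares were 90.7%, 77.0% and 76.3%. Per 1000 start positions the genes with a stop codon summit had 6.33 GGAC, against 4.13 in genes with summits elsewhere only. The excess was present in each 50-nt bin, being smallest at −200 to −151 (5.63 against 4.95) and 7.81 against 4.16 in the bin that begins at the stop codon. GGAC was thus most frequent where summits were densest in the one set of genes, whereas in the other it was most frequent upstream of the stop codon. The stop codon was TGA in 54.3%, TAA in 22.6% and TAG in 23.1% of the genes with a stop codon summit, and 49.4%, 26.0% and 24.6% in the genes with summits elsewhere only. An A of the stop codon stood in a DRACH context, as in a TGA or TAA followed by C, in 18.2% (exact interval 16.7 to 19.7) against 15.2% (14.0 to 16.4). These are descriptions, and a match of letters is not a methylated site.

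Most genes with a stop codon summit in either replicate had one in both. A total of 2614 genes had one in both and 3827 in either, which is 68.3%. For a placed summit anywhere on the chosen transcript it was 6195 genes in both and 7486 in either, a larger share. The 2614 are 12.1% of the 21639 protein-coding genes with a complete stop codon and 42.2% of the 6195 genes with a placed summit in both replicates. In 2605 genes with exactly 1 in each, the peaks overlapped in 2604. By the rule both summits of such a gene lie within 200 nt of the same stop codon. As 86.9% and 88.1% of stop codon peaks covered that codon, their overlap is nearly given by the choice of summits. The window also limits how far apart the summits can be. The summits of the 2605 genes were a median of 11 nt apart (quartiles 3 and 34). In 2308 genes (88.6%) they lay on the same side of the stop codon. Across these genes fold enrichment followed between replicates with a Spearman correlation of 0.875 (n = 2605 genes, which are not independent replicates and share the 2 pairs of libraries). The log2 difference between replicates had an SD of 0.41, and 96.8% of genes lay within 2-fold.

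**Figure D4:**
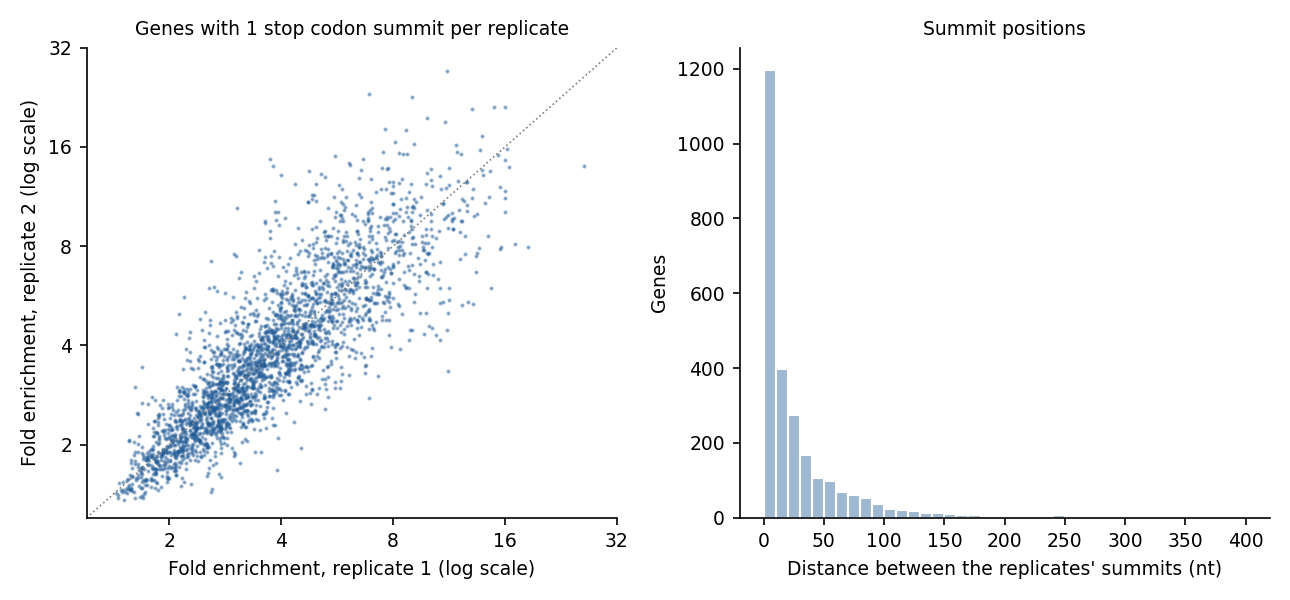
Left, fold enrichment in replicate 1 (horizontal axis, log scale) and replicate 2 (vertical axis, log scale), 1 point for each of 2605 genes with 1 stop codon summit per replicate. Right, number of genes (vertical axis) by the distance between the summits of both replicates in nt (horizontal axis), with a median of 11 nt.

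Many genes seen in 1 replicate only had a peak nearby in the other. Of 707 stop codon summits in genes called in replicate 1 only, 281 (39.7%) lay in a peak that overlapped one of replicate 2, whose summit was placed outside the window or could not be placed. In replicate 2 it was 270 of 508 (53.1%). These summits were farther from the stop codon, at a median of 97 and 107 nt against 75 and 77 nt for genes in both, and rested on fewer IP reads, 71 and 53 against 95 and 93. Most stop codon genes had no other placed summit, 57.6% in replicate 1 and 56.6% in replicate 2. A further summit lay in the coding sequence away from both codons in 739 and 725 of the genes, at the start codon in 466 and 446, and in the distal 3′ UTR in 363 and 346.

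The 10 strongest stop codon peaks lay in genes of varied function. C2cd4a, a nuclear C2-domain protein induced by inflammatory cytokines in endothelial cells, had 16.4-fold and 13.9-fold enrichment, from 144 and 133 IP reads over 9 and 8.2 control reads, with summits at +27 and +32 in exon 2 of 2. Pde4b, a phosphodiesterase that degrades cAMP, had 15.5-fold and 12.1-fold with summits at −144 and −142 in exon 17. Mex3a, an RNA-binding ubiquitin ligase, had 14.6-fold and 13.5-fold at −172 and −175. The summits of each of these genes were at most 5 nt apart.

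Receptors formed a part of this list. Adra2b, an adrenergic receptor encoded by a single exon, had 14.5-fold and 11.3-fold enrichment at +79 and +87. Gpr160, an orphan G protein-coupled receptor, had 11.7-fold and 9.75-fold at −10 and −25, and P2ry2, a receptor for extracellular nucleotides, had 11.5-fold and 9.68-fold at −153 and −133. St8sia4, which adds polysialic acid to cell surface proteins, had 12.6-fold and 10.2-fold, with its replicate 1 summit inside the stop codon and that of replicate 2 at +22.

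The rest act on the cytoskeleton or on membrane traffic. Fhdc1, a formin, had 10.2-fold and 12.2-fold enrichment at −77 and −75. Arhgef3, a guanine nucleotide exchange factor, had 10.9-fold and 10.7-fold at −115 and −180, and Pheta1, which takes part in endosomal trafficking, had 11.6-fold and 9.52-fold at −33 and −29. In all 10 genes both replicates were above 9-fold, where the median of stop codon peaks was below 4-fold. The genes were chosen by their fold enrichment over both replicates, so this distance from the median follows from the choice. Of the 10, 7 had both summits on the coding side and 2 both in the 3′ UTR. Over all stop codon summits, counted singly, 47.8% and 47.1% were on the coding side. Of the 2605 genes with 1 summit per replicate, 46.6% had both in the 3′ UTR.

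By −log10 q, which also weighs the number of reads, C2cd4a (118 and 93.9) and Pde4b (81.5 and 73.9) were again among the first 5. Zfp777, a zinc finger gene, had 8.85-fold and 11.7-fold enrichment at +55 and +79, with −log10 q of 81.5 and 78.5. Actr5, a subunit of the INO80 chromatin remodeler, had its summit at +103 in both replicates, with 7.28-fold and 9.20-fold enrichment. Inip, a subunit of a single-stranded DNA-binding complex of the DNA damage response, had summits at +158 and +147, with 6.96-fold and 7.45-fold. In Inip 93 coding bases precede the stop codon in the last exon, and in Actr5 255.

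The 5 genes shown for a GGAC beside the stop codon were chosen as the highest by fold enrichment, with no minimum of control reads. Eva1b, a membrane protein gene, had 14.9-fold and 21.1-fold enrichment, from 27 and 30 IP reads over 1 and 0.4 control reads, where counting error in the control is large. Pard6b, a cell polarity gene, had 11.8-fold and 16.2-fold, and Sik1, a salt-inducible kinase, had 10.1-fold and 13.7-fold. Mfsd4b4, a member of the major facilitator transporter superfamily, had 12.0-fold and 12.6-fold, and Atp8b2, a phospholipid flippase, had 11.1-fold and 12.0-fold.

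Gene lists for the cells and the pathways at hand were looked at next: transcription factors of hematopoietic stem cells (HSCs), cytokine receptors and their signalling, interferon and TNF response genes, and the m6A machinery. A stop codon summit in both replicates was found in 55 genes of the 4 lists, in 54 of them exactly 1 per replicate. By list, of the genes with a placed summit in both replicates these were 19 of 30 HSC transcription factors (63.3%, exact interval 43.9 to 80.1), 15 of 29 cytokine signalling genes (51.7%, 32.5 to 70.6), 15 of 32 interferon and TNF genes (46.9%, 29.1 to 65.3) and 6 of 14 m6A machinery genes (42.9%, 17.7 to 71.1). Over all genes the share was 42.2%, inside 3 of these 4 intervals and slightly below that of the HSC factors. The HSC list also holds factors of blood lineages, such as Klf1, Cebpa and Spi1. Intervals were not adjusted for the number of classes looked at.

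Receptors of inflammatory and cytokine signals were 7 of the 15 list genes with the highest fold enrichment. The lists hold such receptors by choice, and their share in the lists was not compared, so this number shows no preference for receptors. Tgfbr2, a receptor of TGF-β, had 8.01-fold and 6.19-fold enrichment at +90 and +94, and Il6st, the signal-transducing chain shared by the IL-6 family of cytokines, 6.68-fold and 7.87-fold at −132 and +112. Tlr4, the receptor of bacterial lipopolysaccharide, had 6.25-fold and 7.81-fold at −41 and +100. Among the TNF receptors, Tnfrsf1a had 5.92-fold and 5.71-fold at +2 and +145, and Tnfrsf1b had 5.32-fold and 6.58-fold at −23 and +31. The chains of the type I interferon receptor both had one, Ifnar1 with 5.58-fold and 5.76-fold at −68 and −79, and Ifnar2 with 6.56-fold and 4.55-fold at −31 and −197. The summits of Il6st, Tlr4 and Tnfrsf1b changed side between replicates. Receptors of the same lists also stood lower. Il6ra, a receptor of IL-6, had 3.25-fold and 4.66-fold at −113 and −121, Csf3r, the receptor of G-CSF, 3.45-fold and 2.95-fold at +19 and +26, and Epor, the erythropoietin receptor, 1.73-fold and 1.79-fold at −79 and −74.

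Inhibitors of these pathways had it as well. Tnfaip3 encodes A20, a brake on NF-κB signalling, and had 8.40-fold and 11.1-fold enrichment at +181 and +42, from 25 and 34 IP reads over 2.4 and 2 control reads. Members of the SOCS family, which are induced by cytokines and block their receptors, were Cish (6.83-fold and 9.77-fold at −97 and +136), Socs6 (6.48-fold and 5.55-fold at −164 and −180) and Socs2 (5.62-fold and 5.72-fold at +30 and +115). Skil, a repressor of SMAD-dependent transcription, had 7.69-fold and 5.50-fold at −145 and −144. Ddx58, which encodes the viral RNA sensor RIG-I, had 7.19-fold and 7.38-fold at −22 and −65, on 20 and 16 IP reads. In the 15 genes with the highest fold enrichment of the 4 lists, namely the 7 receptors named first, the genes of this paragraph, Foxo1 and Runx1, the summits were a median of 56 nt apart and 4 genes changed side.

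HSC transcription factors ranged from strong to barely enriched. Foxo1, a factor of stress resistance, had 7.87-fold and 5.24-fold enrichment at −187 and −183 in exon 2 of 3, and Runx1, a master regulator of definitive hematopoiesis, had 5.15-fold and 7.40-fold at −25 and −40. Meis1, a HOX cofactor, had 4.21-fold and 5.40-fold at −7 and +13, and Gata2, required for HSC formation, 2.57-fold and 3.01-fold at −102 and −103. At the low end, Tal1 had 2.14-fold in each replicate, over 80 and 67 control reads. Lmo2 and Ldb1, partners of TAL1 in one complex, had 1.76-fold and 1.80-fold and 1.75-fold and 1.51-fold. Klf1, the erythroid Krüppel-like factor, was lowest with 1.55-fold and 1.47-fold from 197 and 193 IP reads over 145 and 125 control reads. Low ratios in this list thus stood over high backgrounds, and a fold enrichment is not a level of methylation of the mRNA.

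Within the m6A machinery the genes with a stop codon summit were readers, an eraser and writer subunits. Ythdf3 had 4.55-fold and 4.95-fold enrichment at +122 and +162, and its paralog Ythdf2 4.43-fold and 4.20-fold at −21 and −9. The Ythdf2 mRNA of these cells comes from the GFP fusion allele. Rbm15, a subunit that brings the writer complex to RNA, had 4.40-fold and 3.10-fold at +7 and −12, and Zc3h13, another writer subunit, 2.46-fold and 3.16-fold at −74 and −85. Alkbh5, which removes m6A, had 2.37-fold and 2.23-fold at −101 and −113, and Igf2bp1, a reader that stabilizes its targets, 1.88-fold and 2.44-fold at −13 and −35. All 6 stayed below 5-fold in both replicates.

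Of 24 gene classes, 20 had at least 10 genes with a placed summit in both replicates, and most lay near the 42.2% of all genes. Mitochondrial ribosomal proteins stood above it, with a stop codon summit in both replicates in 29 of 41 genes (70.7%, exact interval 54.5 to 83.9). Their peaks were weak, with a median fold enrichment of 2.26 and 2.03 against 3.56 and 3.60 over all genes with 1 summit per replicate, and a median distance of −15.5 and −14.5. Mrps27 had 3.15-fold and 3.33-fold at +117 and +122, and Mrpl18 1.61-fold and 1.44-fold at +121 and +130. Krüppel-like factors had one in 8 of 11 genes (72.7%, 39.0 to 94.0), among them Klf9 with 4.89-fold and 6.75-fold at +49 and +47. Klf2 had 16.2-fold and 15.7-fold at +50 and +87, from 35 and 32 IP reads over 1.4 and 1 control reads. At such a background, counting error in the control is large. Klf4 had 11.2-fold and 3.34-fold on 22 and 13 IP reads, and its replicates differed by more than 2-fold.

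Zinc finger genes of the Zfp, Zkscan and Zscan families, which encode rows of DNA-binding fingers in 1 long last exon, stood below the share of all genes. Of 291 with a placed summit in both replicates, 80 (27.5%, 22.4 to 33.0) had a stop codon summit in both. Their stop codon peaks were among the strongest by class, with a median of 5.27-fold and 5.30-fold, and a median of 1316.5 coding bases in the last exon. Zbtb transcription factors had one in 15 of 34 genes (44.1%, 27.2 to 62.1), at a median of −109 and −92, such as Zbtb10 with 9.87-fold and 10.3-fold at −164 and −172. In Rab GTPases, regulators of vesicle traffic, the median was +58.5 and +70.5 in 12 of 29 genes, with Rab30 at 8.01-fold and 10.1-fold and +117 and +130.

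Few genes of the heme and red cell list and of the respiratory chain list had a stop codon summit in both replicates. More were called when replicate 1 was counted by itself. In both it was 2 of 16 heme synthesis and red cell genes (12.5%, 1.55 to 38.3), namely the survival factor Bcl2l1 (4.48-fold and 3.24-fold at −131 and −127) and the transferrin receptor gene Tfr2 (2.85-fold and 3.90-fold at −65 and −36). Klf1 and Epor, erythroid genes counted in other lists, also had one in both replicates. The share thus holds for this list and not for red cell genes at large. Counted by itself, replicate 1 had 5 genes of the heme and red cell class and replicate 2 had 2. Respiratory chain subunits had it in 3 of 18 genes (16.7%, 3.58 to 41.4), with 7 genes counted in replicate 1 and 3 in replicate 2, and replication-dependent histones in 1 of 14 (7.14%, 0.181 to 33.9), Hist1h4i at +179 and +175. Of 6 cytosolic ribosomal protein genes with a placed summit in both replicates, out of 83, 0 had one at the stop codon, which at this number allows a share of up to 45.9%. mRNA decay factors had one in 6 of 23 genes (26.1%, 10.2 to 48.4), among them Dcp2, the decapping enzyme, with 4.50-fold and 5.42-fold, and its summit at −129 in both replicates. None of the 1091 olfactory receptor genes, which serve the sense of smell, had a placed summit in both replicates. The part of last exon structure and background in these shares was not tested.

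**Figure D5:**
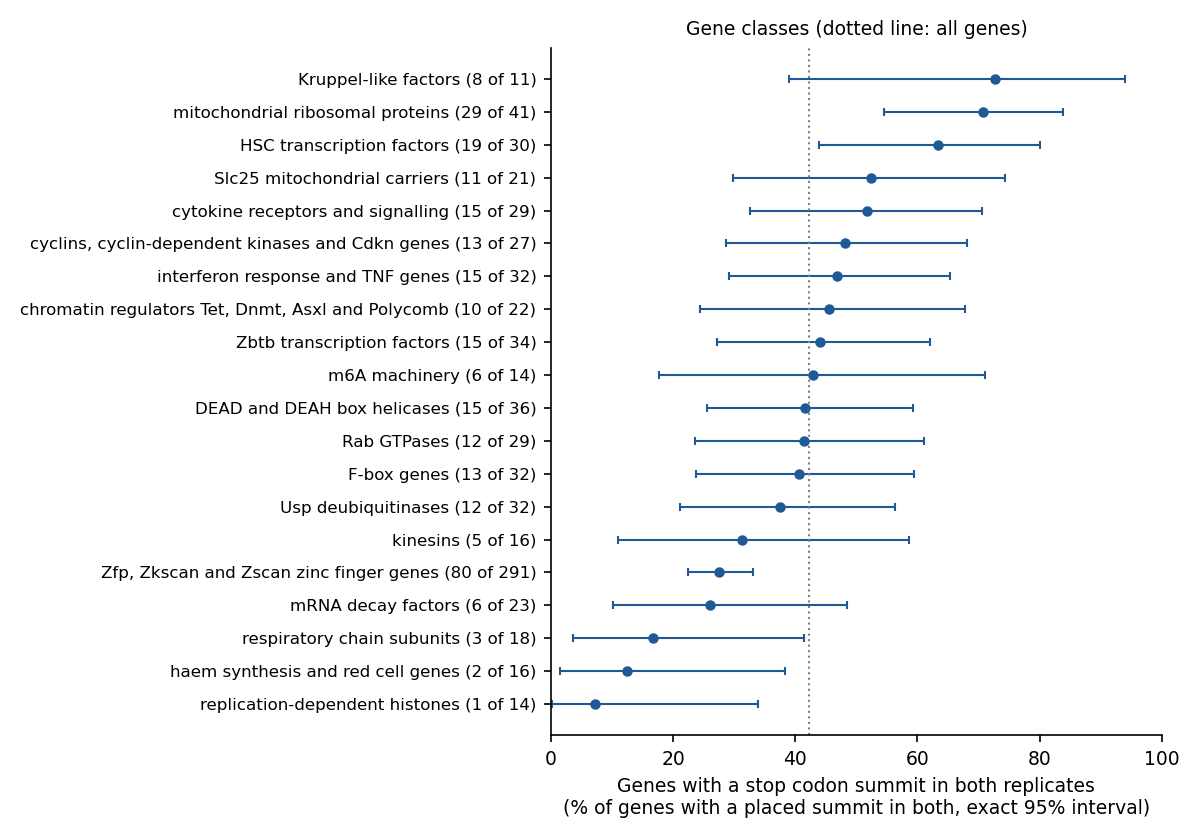
Percent of genes with a stop codon summit in both replicates among genes with a placed summit in both (horizontal axis), for the 20 classes with at least 10 such genes (vertical axis, counts in brackets), with exact 95% intervals covering counting error. The dotted line marks the 42.2% of all genes, and the intervals are not adjusted for the number of classes. Mitochondrial ribosomal proteins and HSC transcription factors lie above it, and zinc finger genes, respiratory chain subunits, heme and red cell genes and histones below it with their intervals.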

How the data were processed

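meRIP-seq peak lists of the 2 IP replicates were used. The authors aligned reads to GRCm38 (mm10) with HISAT2 and called peaks per replicate, without pooling, with MACS2 (2.1.1.20160309, nomodel flag). The deposited ratio is the fold enrichment of the IP over the local background at the summit, the deposited −log10 p-value and −log10 q-value are those of MACS2 there, and the deposited score is a whole-number form of −log10 q. The control library, the threshold, the treatment of duplicate reads and library depth are not given in the sources used here.

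IP and control reads at each summit were computed from the deposited ratio and −log10 p, and control reads are not whole where MACS2 averaged the background over a wider region. They limit the precision of single ratios: the background was under 2 control reads for 5.14% and 6.18% of stop codon peaks. Sequences come from GENCODE M21 transcripts on GRCm38. Motifs were sought on the sense strand. A summit inside the window went to the stop codon first, and a peak was recovered when it overlapped one of the other list by at least 1 bp. Where the replicates' p-values differ, the larger is given for their average.

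Shares have exact Clopper-Pearson 95% intervals, and groups of peaks were compared with Fisher's exact test (two-sided, Benjamini-Hochberg over 24 tests), tested on simulated data. These p-values measure spread among peaks of 1 library only. Samples were grouped by their titles. Named were the 10 genes of highest mean log2 fold enrichment (at least 5 control reads), the first 5 by the smaller −log10 q, the list genes with a summit in both replicates and, for sequences, 5 genes with GGAC within 20 nt of the stop codon. Further genes of the classes were chosen after their values were seen. Members, classes and lists were chosen with earlier results of these data known. Windows, transcript choice, minimum q and fold, overlap rules, motif windows, single replicates and bands of control reads were tried as alternatives. Python 3.11.15, numpy 2.4.6, pandas 2.3.3 and scipy 1.17.1 were used.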

Additional observations from a re-analysis of the deposited data

How the results depend on the processing

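No paired analysis was possible because the input samples have no processed file, so that no test between groups could be made. Stop codon summits were 30.3% of placed summits, and 18.5% with a window of 100 nt, 42.6% with 400 nt, 23.9% with a fold enrichment of at least 4 and 29.5% on the longest transcript. The 3′ UTR side held 51.3%, and 49.6% and 52.4% under the last 2 of these. GGAC near 59.6% became 60.5% and 58.0% with windows of 100 and 400 nt, 60.7% with −log10 q of at least 5, 62.4% with at least 4-fold enrichment, and 37.5% and 79.2% when sought within 25 and 100 nt. Recovery of 89.7% became 84.5% with 50% reciprocal overlap and 80.2% with summits within 100 nt. The 2614 genes in both replicates became 1491 with a window of 100 nt and 918 with at least 4-fold enrichment, and this count has no value without a replicate.

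Differences between classes, in points of share (stop codon peaks minus the other class, averaged over replicates), changed sign or side of the threshold in 34 of 120 values. For fold enrichment at or above the median, the main difference of −24.8 against coding last exons was −5.17 with at least 4-fold enrichment and −7.48 with 5 to under 20 control reads. Against long internal exons, −5.70 became −2.53 with a window of 400 nt, and 6.61 and 5.96 under the same 2 settings. Against the distal 3′ UTR, −6.13 became −4.49, 2.52 and 7.28, and −2.15 with 20 to under 50 control reads. Recovery against coding last exons, −0.959, became 0.0378 with 400 nt, 0.425 with at least 4-fold enrichment, 7.15 with reciprocal overlap and 9.81 with summits within 100 nt. Against long internal exons, −1.59 became 1.96 and 3.94 under the last 2, and the difference from the distal 3′ UTR became 6.12 and 9.10. Width against the distal 3′ UTR, −1.60, became −6.07 with 100 nt, 5.34 with 400 nt, 2.11 with 5 to under 20 and −7.07 with 20 to under 50 control reads. Against long internal exons −7.88 became −5.14 with at least 4-fold enrichment and −5.77 with 5 to under 20 control reads. GGAC against the distal 3′ UTR, 3.67, became 4.13 on the longest transcript, 3.88 with summits in other genes' exons kept, 3.77 within 25 nt, 3.23 within 100 nt and 0.125 with a window of 400 nt, where it was 1.30 (from 3.15) against long internal exons. The causes were not tested, except that fewer peaks enter with a minimum fold or a band of control reads.

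With 1 replicate left out in turn, the ranges were 29.8 to 30.8% of placed summits, 51.0 to 51.7% on the 3′ UTR side, 59.3 to 59.9% with GGAC and 87.1 to 92.3% recovered. For recovery the class differences were −3.44 to 1.52 against coding last exons, −2.89 to −0.293 against long internal exons and −0.0388 to 4.23 against the distal 3′ UTR, so that replicate 2 decides the last of these. For GGAC they were 6.40 to 7.14, 2.42 to 3.88 and 2.84 to 4.51. The bands of control reads were chosen after seeing the data. Depth is unknown, so a gene without a stop codon peak can lack the mark or the reads to show it.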
